A study of Homo sapiens with 12 samples.

Results

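The response of wild-type A549 cells to poly(I:C) was described across transcripts by setting the treated group against the untreated one. A549 cells derive from a human lung carcinoma, and poly(I:C) is an RNA duplex made in the laboratory which, once transfected, is sensed by cells much as viral RNA is. The genes described were all those with at least 1 FPKM (fragments counted relative to transcript length and library size) in the treated or the untreated wild-type group, apart from rows that the authors' table marks HIDATA. This gave 21480 of 58671 genes, of which 12073 are protein-coding. The change of each transcript was then related to the columns of the authors' table that hold the length of the 3′ and 5′ untranslated regions (UTRs), the total length, the GC content and the half-life.

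Double-stranded RNA in the cytoplasm is read by several sensors at once. RIG-I-like receptors switch on interferon and NF-kB target genes, the kinase PKR phosphorylates the translation factor eIF2 alpha, and oligoadenylate synthetases make 2-5A, the second messenger that activates the endoribonuclease RNase L. Activated RNase L cleaves single-stranded RNA, preferring UA and UU dinucleotides, and is known for degrading ribosomal RNA and mRNA of the host. The level of a transcript after some hours is set by what remains of the old pool and by what was newly made, and the half-life describes how fast the old pool is lost in unstressed cells. The half-lives listed here come from another study, whose cell type was not given in the sources used here.

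Parental A549 cells (WT) were sequenced untreated and 6 h after transfection of poly(I:C) at 500 ng/ml, with 3 samples in each group. An RNase L knockout derivative (RLKO) was sampled untreated and after the same treatment, again with 3 samples a group, and is used here only for comparison. Cells of both genotypes were grown in DMEM with serum, and whether the knockout is 1 clone was not given in the sources used here. Total RNA was depleted of ribosomal RNA after ERCC spike-in RNAs had been added.

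The table gives 1 FPKM value for each group, pooled over its samples, so neither read depth nor the spread between samples is known for any value. Of 11 epithelial and A549 markers, 9 were at 1 FPKM or more untreated, including the epithelial keratins KRT7, KRT8 and KRT18 and the enzymes AKR1B10 and ALDH1A1. The epithelial genes EPCAM and CDH1 were low, at 1.03 and 4.52 FPKM untreated and 0.652 and 2.93 FPKM treated. The treated group also had 9 at 1 FPKM or more, with SFTPB at 1.19 FPKM in place of EPCAM. The 11 markers summed to 9468 FPKM untreated and 3200 FPKM treated. Of the untreated sum, AKR1B10 made up 3290 FPKM and ALDH1A1 2201 FPKM. NKX2-1 was at 0.00958 FPKM and SFTPB at 0.392 FPKM untreated, so these defining genes of the alveolar lineage were near 0. Of 6 leukocyte markers only CD68 reached 1 FPKM (sums 19.5 and 25.01 FPKM; PTPRC and CD3E were listed at 0 untreated), of 5 fibroblast markers LUM and COL1A1 did (sums 9.60 and 7.56 FPKM), and none of 4 endothelial markers did (sums 0.0362 and 0.420 FPKM).

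Spike-in RNAs took a larger share of the treated WT libraries. The scale factor from 49 ERCC rows was 1.53 times higher in treated than in untreated WT cells, a shift of 0.61 on the log2 scale, and 48 of the 49 rows were higher. In RLKO the factor was 1.13 times higher. All log2 changes below were taken after division by these factors and addition of 1 to each value, which makes changes of low transcripts look smaller. In bulk RNA, fewer cells and less RNA per cell cannot be told apart.

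The protein-coding transcriptome of WT cells was lower relative to the spike-ins after poly(I:C). The median log2 change of the 12073 genes was -0.71 (quartiles -1.33 and -0.10), which is 0.611 of the untreated level. A change below 0 was measured for 78.4% of them, and 4500 had a log2 change of -1 or lower while 572 had one of 1 or higher. In RLKO the median of the same genes was -0.24. The median in WT was -0.18 in FPKM as deposited and -0.09 after median-ratio scaling over the members, so list medians below are read against the median of all protein-coding genes. Differences between the outer quintiles of a feature, given below, moved by less than 0.25 under these scales.

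Genes are said to have risen or fallen only at a WT q-value under 0.05 in the authors' deposited table. That test was made within the authors' own library scaling, so it does not test the common shift against the spike-ins. By the authors' deposited table, 987 of the 21480 members rose (4.59%) and 739 fell (3.44%), together 8.04%. Among the protein-coding members 517 rose (4.28%) and 375 fell (3.11%), together 7.39%. Of the 987 that rose, 623 had reached 1 FPKM in the treated group alone, and such a gene had to be higher there. Among the 15426 members at 1 FPKM or more in both groups, 364 rose and 687 fell. At the edge of the rule, RASSF4 with 1.00 FPKM untreated and 0.847 FPKM treated was just inside, and NAP1L4 with 0.643 and 0.999 FPKM was just outside.

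The largest rises among genes measurable in both groups belonged to antiviral effectors, cytokines and regulators of stress and inflammation, most of them with short half-lives. IFIT2, an antiviral protein of the interferon response (chromosome 10, positions 89283694 to 89309276 of GRCh38), went from 1.09 to 1113 FPKM, and its half-life is listed as 2.27 h. Its relatives IFIT3 and IFIT1 rose from 2.18 to 335 FPKM and from 3.27 to 333 FPKM. The cytokine gene IL6 rose from 1.14 to 202 FPKM, with a half-life of 2.60 h. NFKBIZ, a nuclear relative of the IkB inhibitors, rose from 4.06 to 341 FPKM with a half-life of 2.17 h. ATF3, a stress-induced transcription factor, rose from 2.90 to 222 FPKM with a half-life of 2.25 h. TNFAIP3, the A20 inhibitor of NF-kB signalling, rose from 4.98 to 251 FPKM with a half-life of 2.22 h. PPP1R15A, which directs dephosphorylation of eIF2 alpha, began higher and rose from 18.1 to 896 FPKM with a half-life of 2.82 h. Their log2 changes ran from 8.598 for IFIT2 to 4.84 for TNFAIP3, and their q-values in the authors' deposited table from 0.00180 to 0.0168. The medians of half-life were 2.60 h over the 276 risen protein-coding genes that have one and 4 h over all 9495.

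The largest falls were of abundant transcripts with short coding regions. RPS21, a protein of the small ribosomal subunit (chromosome 20, 62387116 to 62388520, GRCh38), fell from 5931 to 623 FPKM, which is 6.86% of the untreated level on the spike-in scale. UQCRQ, a subunit of respiratory complex III, fell from 1345 to 152 FPKM. SEC61G, of the channel through which proteins enter the endoplasmic reticulum, fell from 866 to 105 FPKM. RPL34 and RPL7 of the large ribosomal subunit fell from 831 to 103 FPKM and from 812 to 101 FPKM. MRPS33, a mitochondrial ribosomal protein, fell from 270 to 33.1 FPKM, and SRGN, the proteoglycan serglycin, from 218 to 26.9 FPKM. The calcium-binding protein S100P was less abundant and fell from 31.998 to 2.91 FPKM. The coding regions of these 8 genes ran from 207 nt in SEC61G to 747 nt in RPL7, where the median over all protein-coding members was 1380 nt. Their log2 changes lay between -3.86 and -3.57 in WT, and between -1.45 and -0.72 in RLKO. Their half-lives did not run in parallel with their falls: RPS21, UQCRQ, RPL7 and SRGN are listed at 24 h, but SEC61G, RPL34, S100P and MRPS33 at 3.28, 3.64, 3.77 and 4 h.

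**Figure D1:**
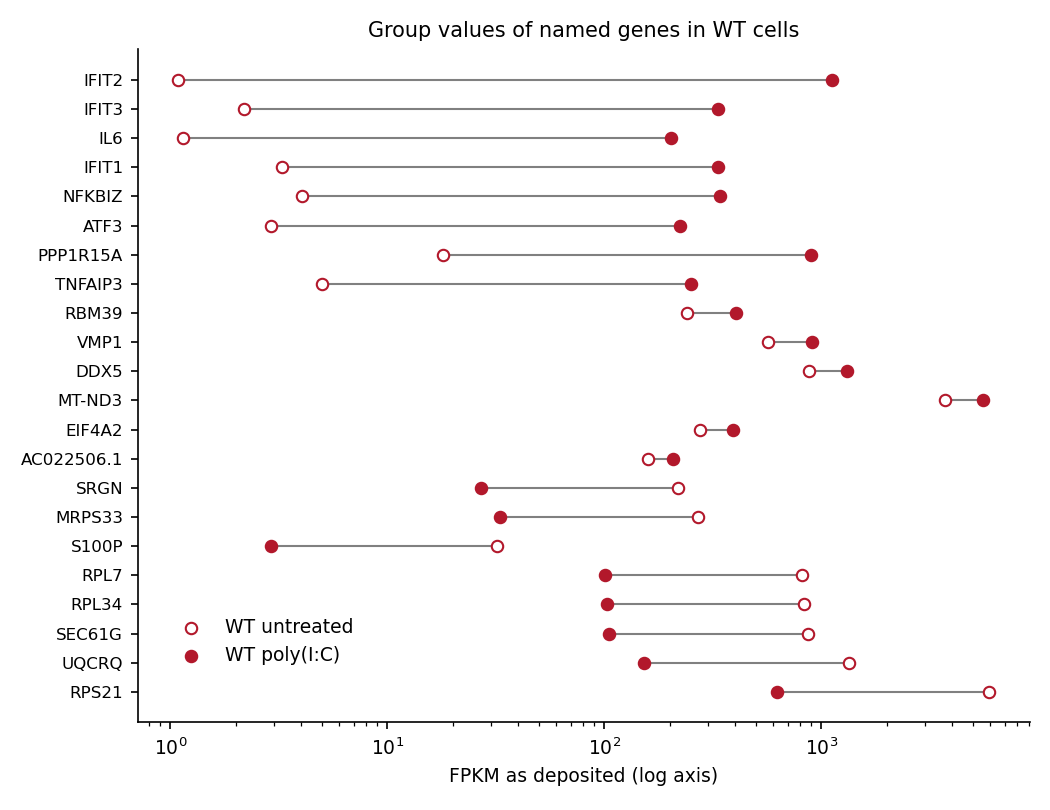
FPKM as deposited (horizontal log axis) in untreated WT (open circles) and poly(I:C)-treated WT cells (filled circles) for 22 protein-coding genes; each circle is the authors' pooled value of a group, with no error available. IFIT2 moved farthest upwards, to 1113 FPKM, and RPS21 moved from 5931 to 623 FPKM.

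Half-life was the deposited feature with the strongest relation to the change. Across 9495 protein-coding members with a value, Spearman's rho between half-life and log2 change was -0.51 in WT and -0.21 in RLKO. These are descriptions across genes of the same libraries, which are not independent replicates. Split by rank into 5 quintiles, the shortest-lived genes (median 2.44 h) had a median change of -0.18, and the next quintiles -0.54, -0.75 and -1.01. The longest-lived quintile (median 17.1 h) had a median of -1.49. The difference between the outer quintiles was -1.31 in WT and -0.18 in RLKO, where the medians ran from -0.17 to -0.36. The number of genes that fell went from 8 in the shortest-lived quintile to 208 in the longest-lived, and the number that rose from 161 to 13.

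Longer-lived transcripts were also more abundant, with a median of 7.74 FPKM in untreated RLKO cells in the shortest-lived and 53.0 FPKM in the longest-lived quintile. The untreated level, taken from RLKO so that it shares no value with the WT change, had a rho of -0.63 with that change. With this level held in a partial rank correlation, rho for half-life was -0.32 in WT and -0.03 in RLKO. The level held is itself part of the RLKO change. The RLKO values with level held, here and below, therefore share a value with it, which those of WT do not. The difference between outer quintiles, averaged over 4 classes of level, was -0.76 in WT and 0.04 in RLKO. Among genes at 1 to 10 FPKM in untreated RLKO, the outer medians in WT were -0.05 and -0.88. At 100 FPKM and over they were -1.34, over 34 genes, and -2.21, over 653. The difference between the genotypes carries no test, because each group has 1 value.

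A few genes stood against this order. Of the 674 protein-coding members whose half-life is listed at the upper limit of 24 h, 104 fell and 4 rose. The 4 that rose, of which all but ISG15 were singled out after their values were seen, were ISG15, IFI6, NIM1K and PYGM. ISG15, which is conjugated to proteins like ubiquitin, rose from 8.99 to 294 FPKM, and IFI6, an interferon-induced membrane protein, from 3.11 to 84.1 FPKM. NIM1K, a protein kinase, rose from 0.0635 to 3.96 FPKM, and PYGM, the muscle glycogen phosphorylase, from 0.119 to 2.79 FPKM, so both reached 1 FPKM in the treated group alone. In RLKO the log2 changes of ISG15 and IFI6 were 5.10 and 3.75, but those of NIM1K and PYGM were 0.17 and -0.08. The longest-lived quintile also held the risen interferon-induced genes HERC5, OAS3 and SAMHD1, likewise named after their values were seen.

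At the other end, 8 genes fell in the shortest-lived quintile. ITGAE, the integrin alpha E chain, had the largest of these falls, from 150 to 24.5 FPKM (log2 -3.17) with a half-life of 2.53 h. The others, named after their values were seen, were NDUFAF2, NACA2, CCDC167, INSIG2, CENPQ, RAB38 and TMEM37. Apart from ITGAE, whose coding region has 3540 nt, their coding regions had from 294 nt in CCDC167 to 807 nt in CENPQ. The median coding length of the 8 was 642 nt. NDUFAF2, an assembly factor of respiratory complex I, fell from 105 to 17.5 FPKM with a half-life of 2.35 h, and NACA2, of the nascent polypeptide-associated complex, from 163 to 28.2 FPKM.

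Total length ran the other way, with shorter genes having the lower change. The column equals the length of the longest transcript of the gene in GENCODE v29 in 21480 of 21480 members. Among protein-coding members rho was 0.25 in WT and 0.18 in RLKO. The median change was -1.24 in the shortest quintile (median 1550 nt) and -0.45 in the longest (median 7673 nt), a difference of 0.79, against 0.16 in RLKO. Of the genes that fell, 220 were in the shortest quintile and 8 in the longest, while 102 of those that rose were in each of these quintiles. With level held, rho was 0.27. Over all 21480 members, coding and noncoding, the direction was the opposite, with a rho of -0.22 and a difference between the outer quintiles of -1.10. Of these members 5134, of which 888 are protein-coding, had passed the filter in the treated group alone. Such members had to be higher there, and their part in the turn was not tested. Among protein-coding genes without the filter on low values, rho was 0.06 and the difference -0.06.

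In 2295 of the protein-coding members (19.01%) the longest transcript is not itself a coding one, so the feature columns do not always describe the mRNA. For RPS21 the table lists a total length of 1002 nt and a 3′ UTR of 758 nt. Its representative coding transcript, chosen from GENCODE v29 by its APPRIS and support tags, has 344 nt in all, with 252 nt of coding sequence and 53 nt of 3′ UTR. Representative transcripts were found for 11934 of 12073 genes. Their coding length had a rho of 0.33 with the change in WT and 0.23 in RLKO, and their total length one of 0.27 in WT. Median changes by quintile of coding length were -1.38, -0.94, -0.70, -0.55 and -0.39 from the shortest (median 519 nt) to the longest (median 3465 nt). The numbers that fell were 222, 79, 34, 28 and 8 in the same order.

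**Figure D2:**
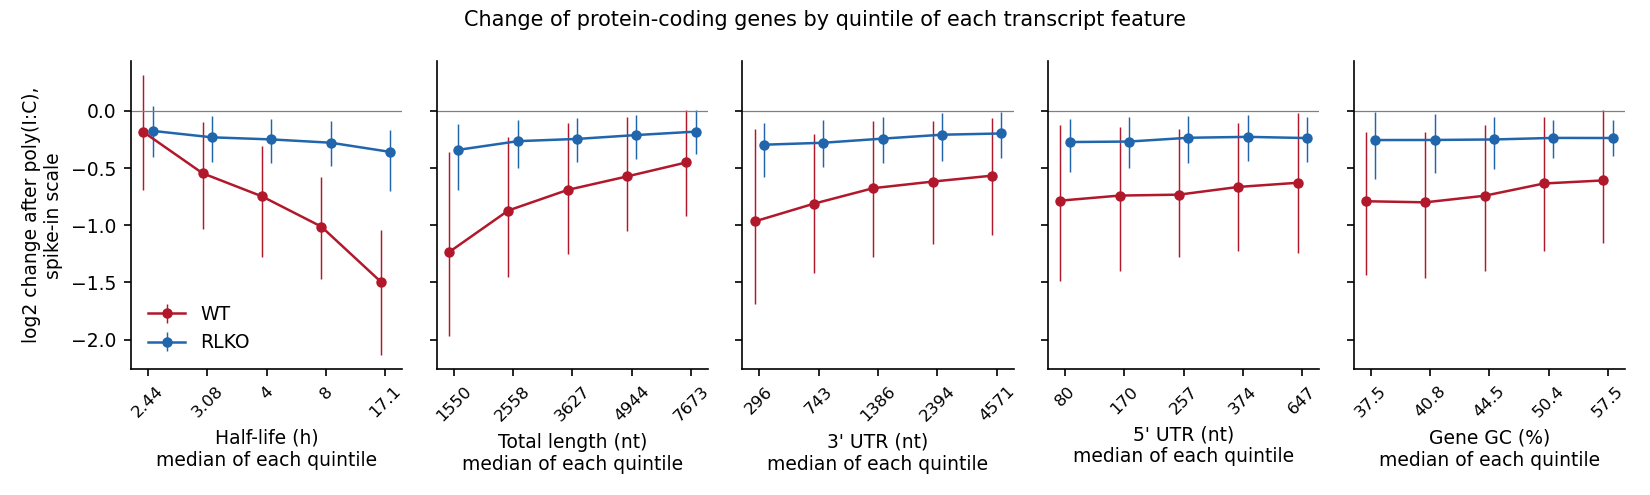
Log2 change after poly(I:C) on the spike-in scale (vertical axis) of protein-coding genes by quintile of half-life (h), total length, 3′ UTR and 5′ UTR length (nt) and GC content (percent), in WT (red) and RLKO (blue); points are medians, and bars span the interquartile range of the genes and are no error of measurement. The WT medians run from -0.18 to -1.49 with half-life and from -1.24 to -0.45 with total length, and differ least with 5′ UTR length and GC content.

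Half-life and coding length divided the genes further in combination. The 628 genes in the longest-lived and shortest-coding quintiles had a median change of -2.12, and 130 of them fell and 2 rose. Their median level in untreated RLKO was 107 FPKM. The 308 genes in the shortest-lived and longest-coding quintiles had a median of -0.13, and 1 of them fell and 28 rose. Within the longest-lived quintile the medians went from -2.12 to -0.93 with increasing coding length, and within the shortest-lived from -0.43 to -0.13. In RLKO the lowest of the 25 medians was -0.61, for the same class of genes as in WT. In a regression on ranks over 9432 genes, with half-life, coding length, 3′ UTR, 5′ UTR, GC content and level together, the standardised coefficients in WT were -0.40 for level, -0.28 for half-life and 0.27 for coding length. They were 0.13 for GC content, 0.09 for 3′ UTR and 0.07 for 5′ UTR length. These terms took up 53.7% of the variance of the ranks in WT and 22.2% in RLKO, where the coefficient of half-life was -0.00 and that of coding length 0.18.

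**Figure D3:**
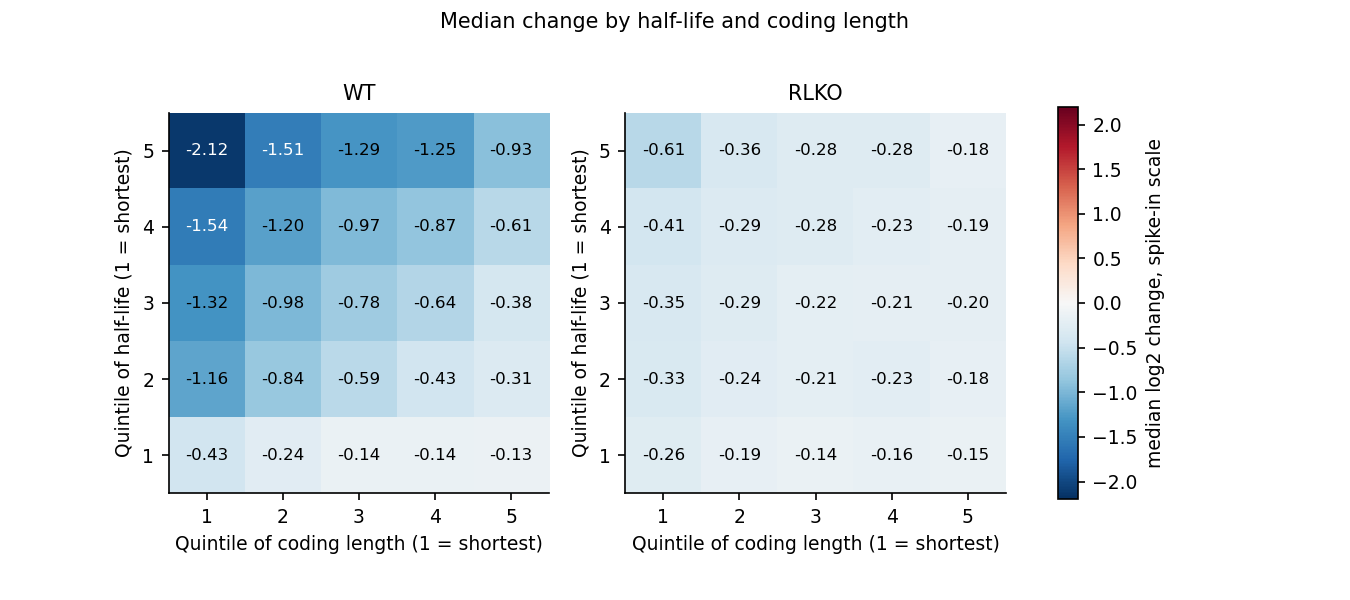
Median log2 change on the spike-in scale of protein-coding genes in each combination of quintile of coding length (horizontal axis) and of half-life (vertical axis), with WT on the left and RLKO on the right; colour and number give the median. In WT the values run from -0.13 to -2.12, the lowest where a long half-life meets a short coding region.

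The 3′ UTR, where most binding sites for decay factors and microRNAs lie, had a weaker relation. In the table this column holds the longest single UTR segment over the gene's transcripts less 1 nt, which was so in 11981 of 11981 members with a value, and the 5′ UTR column holds the same for the 5′ end in 11916 of 11916. The rank correlation between 3′ UTR length and change was 0.12 in WT and 0.13 in RLKO. Median changes were -0.97 in the shortest quintile (median 296 nt) and -0.57 in the longest (median 4571 nt), and 172 and 15 genes fell in these. Without the filter on low values the direction turned, with a rho of -0.01 and a difference of -0.21. Within the longest 3′ UTR quintile the medians still went from -1.08 to -0.34 between the shortest and the longest coding quintile. Within the shortest coding quintile they went from -1.62 to -1.08 between the shortest and the longest 3′ UTR quintile.

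The 15 genes that fell in the longest 3′ UTR quintile had a median coding length of 906 nt, where all genes that fell had 621 nt and all protein-coding members 1380 nt. In POLR1D, PPIE and RNF130 of these 15, named after their values were seen, the representative transcript has a 3′ UTR of only 202, 352 and 587 nt. GTF2H5, a small subunit of the repair and transcription factor TFIIH, is listed with a 3′ UTR of 7186 nt and has a coding region of 216 nt. It fell from 49.8 to 7.42 FPKM. MRPS33, with a 3′ UTR of 3819 nt and a coding region of 321 nt, was among the largest falls. PSMA4, a subunit of the proteasome core, is listed with a 3′ UTR of 3474 nt and has a coding region of 786 nt. It fell from 1054 to 171 FPKM. VPS35, of the retromer complex, was named after its values were seen; it had the longest coding region of the 15, at 2391 nt, and fell from 229 to 52.8 FPKM.

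Long coding regions seldom went with a fall. ITGAE, ADGRE1, COPB2, DLGAP5, CNTN1, KIAA1324, IARS2 and COG5 were the 8 that fell in the longest coding quintile, all but ITGAE named after their values were seen. COPB2, a subunit of the COPI vesicle coat, fell from 206 to 55.5 FPKM (log2 -2.48), and IARS2, the mitochondrial isoleucyl-tRNA synthetase, from 68.4 to 25.3 FPKM (log2 -2.00). Among long transcripts that rose, ZC3HAV1, the antiviral zinc-finger protein ZAP that binds CpG-rich RNA, rose from 12.1 to 370 FPKM with a listed length of 7100 nt. HIP1R, an endocytic adaptor with a coding region of 3207 nt, rose from 4.73 to 165 FPKM, and its log2 change was 4.30 in WT and 2.72 in RLKO.

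Among the deposited columns and at the filter used here, 5′ UTR length and GC content had the smallest rank correlations. The rank correlation for 5′ UTR length was 0.07 in WT and 0.05 in RLKO. The outer quintiles (medians 80 and 647 nt) had median changes of -0.78 and -0.63. With level held, the rank correlation was 0.12 and the difference between the outer quintiles 0.32, close to the 0.15 and 0.36 of 3′ UTR length. Without the filter on low values the difference was -0.19, in the opposite direction. GC content, whose exact definition was not given in the sources used here, had a rank correlation of 0.88 with that of the representative transcripts. Its rho with the change was 0.09, and the outer quintiles (medians 37.5% and 57.5%) had medians of -0.79 and -0.61. With level held, the partial rho was -0.01. Taken from the representative transcripts, GC content had a rho of 0.14 and 3′ UTR length one of 0.10. MDH1, the cytosolic malate dehydrogenase with 38.1% GC, fell from 889 to 120 FPKM, and RPS21 fell farther with 59.5% GC.

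In coding, 3′ UTR and total length the genes that fell lay farther from all protein-coding members than the genes that rose. Medians over all were 4 h, 1380 nt of coding length, 1386 nt of 3′ UTR and 3627 nt in total, with 44.5% GC. The genes that rose had median values of 2.60 h for half-life, 1432.5 nt for coding length, 1215 nt for the 3′ UTR and 3519 nt for total length. Those that fell had 13.04 h, 621 nt, 529.5 nt and 1848 nt. Median GC contents were 47.4% and 43.2%. Untreated WT levels were far apart, at 1.22 FPKM for the genes that rose and 105 FPKM for those that fell. The untreated WT value is itself part of the change, and a gene below 1 FPKM there entered only if it was higher treated. In untreated RLKO, which shares no value with the WT change, the medians of the same genes were 1.41 and 90.7 FPKM. Whether level decides these calls was not tested. The share of UA and UU among the dinucleotides of the representative transcript, the pairs that RNase L prefers, was 10.4% in the median gene that rose and 12.3% in the median gene that fell. Its rho with the change was -0.14, or -0.02 with level held.

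Gene lists with a common function had medians far apart, and their half-lives and coding lengths differed widely. Among 72 genes for proteins of the cytosolic ribosome, 13 fell (18.1%, against 3.11% of all protein-coding members) and none rose (against 4.28%). The median change was -2.76, and their medians of half-life and coding length were 24 h and 471 nt. Of 72 nuclear-encoded respiratory chain genes 24 fell (33.3%) and none rose, with a median of -2.80, 24 h and 412.5 nt. UQCRQ led these, and ATP5PD, of ATP synthase, fell from 701 to 93.1 FPKM. UQCRHL, an intronless copy of a complex III gene whose reads can be shared with its parent gene, fell from 68.5 to 7.78 FPKM. Of 74 mitochondrial ribosomal protein genes 15 fell (20.3%) and none rose, with a median of -2.21. Their half-lives were shorter, with a median of 8.55 h, but their coding regions were also short, at 588 nt. MRPL48 fell from 137 to 17.2 FPKM.

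The protein quality and secretion machinery lay lower than the median of all protein-coding genes too. Of 33 proteasome subunits 5 fell (15.2%, against 3.11% of all protein-coding members) and none rose (median -2.09, half-life 14.7 h). PSMD10, a chaperone of the regulatory particle, fell from 179 to 26.4 FPKM, and PSMA5 of the core from 697 to 108 FPKM. Of 30 genes of translocation and N-glycosylation in the endoplasmic reticulum, 3 fell (10%, with a list median of -2.17). These were SEC61G, DAD1, a subunit of oligosaccharyltransferase, which fell from 599 to 92.8 FPKM, and SSR4, of the translocon-associated complex, which fell from 341 to 79.6 FPKM. Of 22 chaperones 1 fell (4.55%, against 3.11% of all protein-coding members), HSPA8, the constitutive HSP70, from 3947 to 825 FPKM (list median -1.74). Of 25 targets of the oxidative stress factor NRF2, a factor known to be constitutively active in A549 cells, 1 fell (4%). This was the reductase AKR1C3, from 2768 to 425 FPKM (list median -1.75). NQO1 of the same list stood at 3535 and 638 FPKM without passing (q = 0.0956 in the authors' deposited table).

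Metabolic lists gave between 0 and 2 calls each. None of 16 glycolysis genes passed in Cuffdiff's test, and 5 had an unadjusted p under 0.05. The list had a median of -1.59, with a half-life of 24 h and a coding length of 1279.5 nt. LDHA stood at 3482 and 1410 FPKM and GAPDH at 3385 and 1160 FPKM. Of 28 lysosomal genes, also with a median half-life of 24 h, 2 fell (7.14%, against 3.11% of all protein-coding members; median -1.08). They were ASAH1, acid ceramidase, from 110 to 23.1 FPKM, and CTSB, cathepsin B, from 7.38 to 3.34 FPKM. Of 21 genes of cholesterol synthesis, with a median half-life of 6.86 h, 1 fell (4.76%), PMVK, phosphomevalonate kinase, from 33.3 to 8.56 FPKM (median -1.12), while HMGCS1 stood at 191 and 246 FPKM. Lysosomal and glycolysis genes had the listed half-life of ribosomal protein genes, with coding regions of 1425 and 1279.5 nt in the median, and medians nearer to that of all protein-coding genes. Their untreated WT levels were also lower, with medians of 34.1 and 425 FPKM against 1228 FPKM for cytosolic ribosomal protein genes. The parts of coding length and of level in this were not tested.

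Among the genes of RNA and protein synthesis, 3 of 63 translation factors fell (4.76%, against 3.11% of all protein-coding members, with a median of -1.17). EIF2B3, part of the exchange factor of eIF2, fell from 53.3 to 12.4 FPKM, EIF4EBP1, the inhibitor of the cap-binding factor eIF4E, from 112 to 37.3 FPKM, and EIF3I from 144 to 51.8 FPKM. None of 20 hnRNP genes passed in Cuffdiff's test, and 0 had an unadjusted p under 0.05 (median -0.94, half-life 9.60 h). HNRNPA2B1 stood at 881 and 526 FPKM. Of 17 SR splicing factors and CLK kinases 1 rose (5.88%, against 4.28% of all protein-coding members). This was SRSF12, from 1.23 to 8.78 FPKM (list median -0.55), while the abundant SRSF3 stood at 778 and 304 FPKM. Of 31 genes of mRNA deadenylation, decapping and decay 1 fell (3.23%), LSM4, from 99.8 to 34.3 FPKM (median -0.62). Of 39 genes of DNA replication and mitosis 4 fell (10.3%, with a list median of -1.35). Among them were the cyclin CCNB1, from 609 to 139 FPKM, and the ribonucleotide reductase subunit RRM1, from 160 to 46.9 FPKM. The helicase subunit MCM6 also fell, from 67.7 to 22.2 FPKM.

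Replication-dependent histone genes had a low change in WT and half-lives near the median of all protein-coding genes. Their mRNAs have no introns and end in a stem-loop in place of a poly(A) tail. Of 58 measured members 8 fell (13.8%) and 6 rose (10.3%), against 3.11% and 4.28% of all protein-coding members. The median half-life was 3.67 h over 44 with a value, and the median change was -1.90 in WT against -0.12 in RLKO. HIST1H4B fell from 3801 to 539 FPKM and HIST1H2AB from 1894 to 308 FPKM, with half-lives of 2.82 and 2.94 h. The RLKO log2 changes of these genes were -0.39 and -0.53. Histone genes are near-identical copies of each other, so how their reads were divided is uncertain.

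At the other extreme, zinc-finger and extracellular matrix genes lay above the median of all protein-coding genes. The 356 measured ZNF genes, many of them repressors of transcription, with a median half-life of 2.38 h, had a median change of -0.20, and 12 of them rose (3.37%, against 4.28% of all protein-coding members) while 1, ZNF32, fell from 33.1 to 6.94 FPKM. The RLKO median of the list was -0.18. ZNF503 rose from 1.74 to 9.99 FPKM. The 49 collagens, laminins and integrins, whose coding regions were long (median 3546 nt) and whose half-lives were not short (8 h), had a median of -0.41. Of these genes 5 rose (10.2%) and 1, ITGAE, fell (2.04%). ITGB8 rose from 0.0973 to 3.78 FPKM, reaching 1 FPKM in the treated group alone. The name of ITGB1BP2, which rose from 1.42 to 11.6 FPKM, places it in the list although it encodes an integrin-binding protein. Of 205 solute carriers 7 rose (3.41%) and 4 fell (1.95%), where 4.28% and 3.11% of all protein-coding members did. Their median was -0.75. SLC25A5, the adenine nucleotide translocator, fell from 502 to 145 FPKM, SLC25A20 from 11.4 to 3.06 FPKM and SLC35A1 from 13.7 to 3.92 FPKM.

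Lists of induced genes had untreated medians of 3.33 FPKM for interferon-stimulated, 9.94 FPKM for NF-kB target and 13.5 FPKM for immediate early genes, against 13.4 FPKM for all protein-coding members. Of 56 interferon-stimulated genes 34 rose (60.7%, against 4.28% of all protein-coding members) and none fell. Their median change was 2.46 in WT and 2.08 in RLKO. Of the 56, 18 had reached 1 FPKM in the treated group alone, and the median half-life of 33 members with a value was 4.83 h. OASL, an oligoadenylate synthetase-like protein, went from 0.776 to 231 FPKM. Of 40 immediate early genes, transcription factors and feedback regulators with a median half-life of 2.33 h, 25 rose and none fell, with a median of 1.37 in WT and 0.46 in RLKO. EGR1 went from 0.220 to 199 FPKM. Of 34 NF-kB targets 21 rose (61.8%) and none fell, with medians of 1.14 and 0.81 in WT and RLKO. Of these targets 5 had reached 1 FPKM in the treated group alone. In each list such members had to be higher there. Of 6 interferon genes 2 rose, IFNL3 and IFNL4, both listed at 0 untreated and at 412 and 8.23 FPKM treated. The median change of the 6 was 8.30 and the lowest 0.94, and 5 of them had reached 1 FPKM in the treated group alone.

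**Figure D4:**
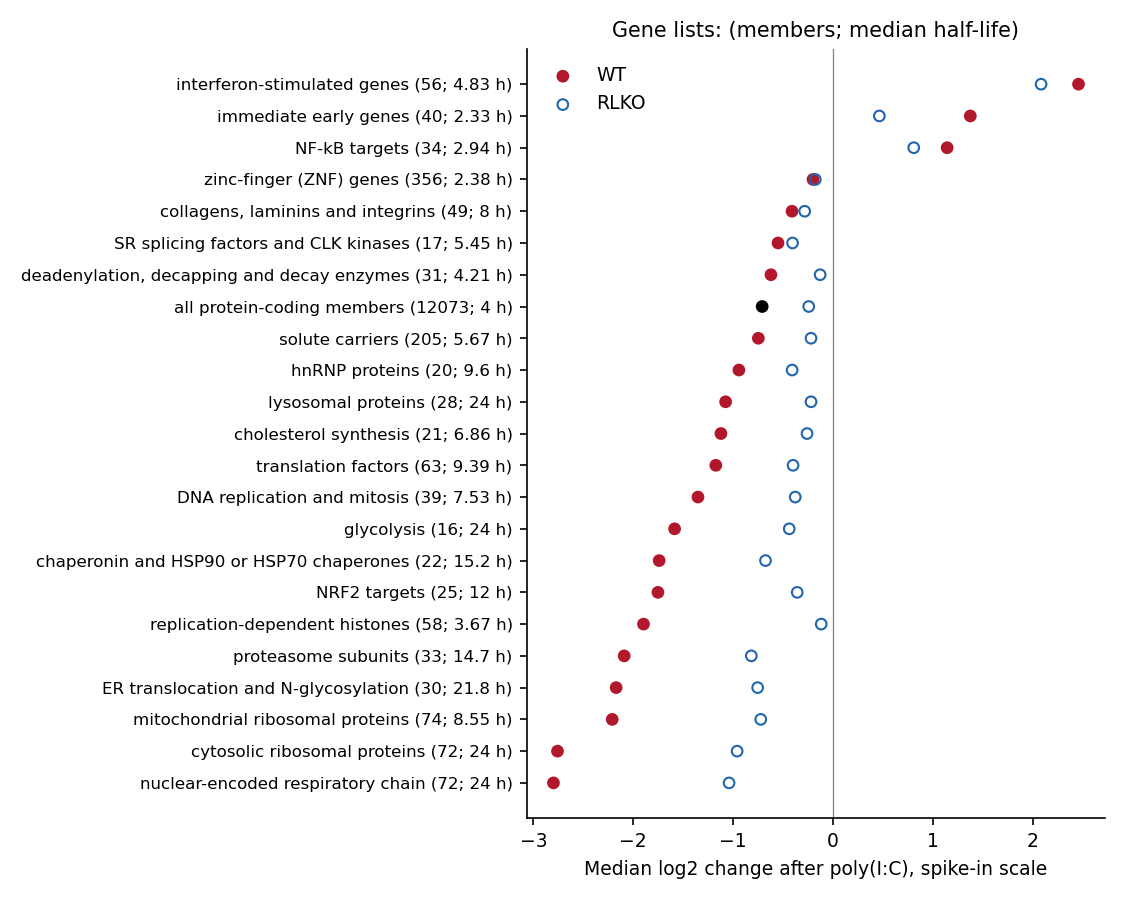
Median log2 change after poly(I:C) on the spike-in scale (horizontal axis) of gene lists with at least 10 members, in WT (filled red, black for all protein-coding members) and RLKO (open blue); parentheses give the number of members and their median half-life in hours. Respiratory chain and ribosomal protein genes lie lowest at -2.80 and -2.76 in WT, zinc-finger genes lie at -0.20 and interferon-stimulated genes at 2.46.

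Some abundant transcripts had a change near 0 on the spike-in scale. That their FPKM as deposited were higher after treatment follows from the spike-in shift of 0.61 on the log2 scale. By a rule of at most 0.25 on the log2 scale in either direction, the 6 most abundant protein-coding genes were MT-ND3, DDX5, VMP1, EIF4A2, RBM39 and AC022506.1. None of the 6 passed in the authors' deposited table, where their q-values lay between 0.322 and 0.921. MT-ND3, a complex I subunit encoded in the mitochondrion, stood at 3711 and 5574 FPKM in WT and had log2 changes of -0.03 in WT and -1.38 in RLKO. DDX5, an RNA helicase of splicing and transcription, stood at 873 and 1315 FPKM, and VMP1, a membrane protein of autophagy, at 570 and 906 FPKM. EIF4A2, a helicase of translation initiation, stood at 277 and 391 FPKM, and RBM39, a splicing factor, at 239 and 405 FPKM. The list of 11 mitochondrially encoded RNAs had a median of 0.76 in WT and -1.22 in RLKO. In WT it ran from -3.26 to 1.29, with 4 members below 0. MT-CO2 of this list stood at 15783 and 18682 FPKM in WT, a log2 change of -0.37. The 2 mitochondrial rRNAs, in libraries depleted of ribosomal RNA, had a median of -2.99 in WT and 0.11 in RLKO. None of these 11 passed in Cuffdiff's test, and 3 had an unadjusted p under 0.05.

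Most classes of noncoding RNA lay above the mRNAs in WT. Median changes were 0.56 for 1023 lincRNAs, of which 181 rose (17.7%) and 8 fell. They were 0.48 for 1904 antisense RNAs, of which 61 rose (3.20%) and none fell, and 0.61 for 347 sense intronic RNAs, of which 1 rose (0.288%). Over all members 4.59% rose. In RLKO these classes had medians of -0.21, -0.22 and -0.30. Many noncoding members had passed the filter in the treated group alone, 557 of the lincRNAs and 1054 of the antisense RNAs, and such members had to be higher there. A further restriction was to members with 1 FPKM or more in untreated RLKO, a level that shares no value with the WT change. The WT medians were then 0.11 for 501 lincRNAs, 0.29 for 1019 antisense RNAs, 0.59 for 204 sense intronic RNAs and -0.79 for 11119 protein-coding genes. These members, here and below, had also passed the filter on the WT groups, so that selection is not removed. Antisense and intronic reads cannot be told apart from those of the host gene, since whether strand was kept was not given in the sources used here.

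Pseudogenes split by their origin. Processed pseudogenes, reverse-transcribed copies of mRNAs, had a median of -0.50, and 336 of 2810 fell (11.96%), more than in any other class. Among the 2054 with 1 FPKM or more in untreated RLKO the median was -1.10. Unprocessed pseudogenes, duplicated copies that keep their introns, had a median of 0.62. Of these 169 genes 102 had reached 1 FPKM in the treated group alone, and the 74 with 1 FPKM or more in untreated RLKO had a median of 0.30. Reads of a processed pseudogene can be shared with its parent gene. Classes of short RNA differed in WT, with medians of 2.02 for 568 snRNA genes, 2.23 for 330 miRNA genes and -0.46 for 382 snoRNA genes. Of these 24, 0 and 4 rose (4.23%, 0% and 1.05%), against 4.59% of all members. The treated group alone had brought in 289 of the snRNA, 170 of the miRNA and 92 of the snoRNA genes. Among those with 1 FPKM or more in untreated RLKO the medians were 1.68, 0.64 and -0.77. The interquartile range over all miRNA genes was wide, from -1.15 to 3.71.

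**Figure D5:**
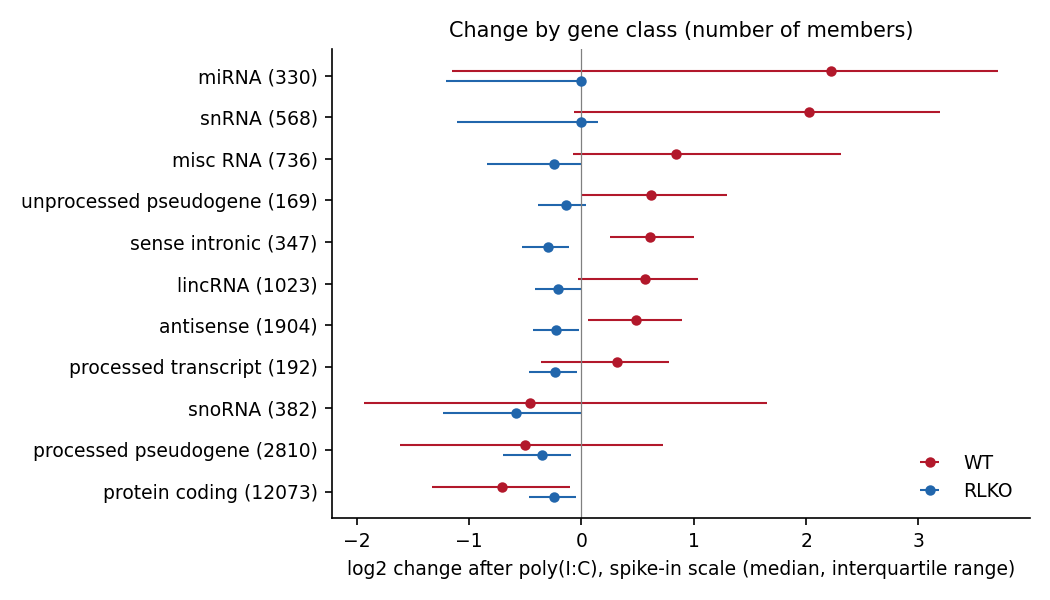
Log2 change after poly(I:C) on the spike-in scale (horizontal axis) by gene class with the number of members in parentheses, for WT (red) and RLKO (blue); points are medians, and bars span the interquartile range of the genes and are no error of measurement. Of the classes with at least 100 members, protein-coding genes lie lowest in WT at -0.71 (processed pseudogenes lie lower, at -1.10 against -0.79, among genes with 1 FPKM in untreated RLKO), and lincRNA, antisense and sense intronic RNAs lie between 0.48 and 0.61 in WT and below 0 in RLKO.

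Promoter sequence was examined for the interferon-stimulated response element, the site to which IRF and STAT factors bind in genes such as the IFITs. RefSeq promoters (GRCh38.p14, from 250 bases before to 50 after the start, the first one listed for each gene) were matched by symbol to 9477 of the 12073 protein-coding members. The motif searched was GAAA, any 2 bases and GAAA again, on both strands, which on the other strand reads TTTC, any 2 bases and TTTC. It was present in 3.65% of all 27305 promoters of the table and in 2.69% of the matched members. Of 393 risen genes with a promoter 33 held it (8.40%), of 298 that fell 10 did (3.36%), and of 37 with a rise of 3 or more on the log2 scale 13 did (35.1%). The windows of 30 bases below, with the motif in capitals, belong to IFIT1 and IFIT3, to the long-lived ISG15 and to HIP1R, a large rise outside the interferon lists. Of the 8 genes with the largest rises, only IFIT1 and IFIT3 had a match. None was found for IFIT2, the largest rise, or for the others. Promoters were matched for only 9477 of the 12073 members, and whether those of these genes were among them is not recorded here. The lack of a match therefore does not show that these genes lack the motif. Matches not shown lay in IFNL3, EXOSC3 and PSMA4, of which IFNL3 rose and PSMA4 fell. IFIT1, IFIT3 and ISG15 each have a pair of matches of which 1 is shown. All are written 5′ to 3′ on the plus strand, the strand of these genes.
IFIT1, chr10:89392497-89392526: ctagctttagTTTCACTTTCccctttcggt
IFIT3, chr10:89327865-89327894: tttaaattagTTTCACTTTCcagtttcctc
ISG15, chr1:1013374-1013403: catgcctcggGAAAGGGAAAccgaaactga
HIP1R, chr12:122834506-122834535: attccgatagGAAAGGGAAAcagcagaaac

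Counted to the start that the RefSeq table gives, which can differ from the start of the gene in GENCODE, the matches begin 116 bases upstream in IFIT1, 122 in IFIT3, 113 in ISG15 and 232 in HIP1R. Members with the motif had a median change of -0.35 and those without it one of -0.73, and 12.9% of the first and 3.904% of the second rose. A match to these letters is a description of the sequence and was not tested for binding.

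The 3′ UTRs of short-lived cytokine and immediate early mRNAs are known for AU-rich elements, to which decay factors such as tristetraprolin bind. The heptamer TATTTAT, on the transcript's strand, was searched in the 3′ UTRs of 11760 representative transcripts and found in 32.4% of them. It was present in 198 of 505 genes that rose (39.2%), in 23 of 46 that rose by 3 or more (50.0%) and in 47 of 363 that fell (12.9%). The 3′ UTRs of the genes that fell were shorter, with medians of 395 nt against 1050 nt over all genes. Per kilobase the heptamer was found 0.458 times in genes that rose, 0.670 times in those that rose by 3 or more, 0.274 times in those that fell and 0.332 times over all. The 30-base windows below, from GENCODE v29 transcripts, show 1 match in each of 5 risen genes with half-lives under 3 h, with the heptamer in capitals.
IL6: tatgtaagtcaTATTTATatttttaagaag
ATF3: aaaatattactTATTTATcctagtattcct
TNFAIP3: gtaattcacttTATTTATtttattacaaac
PPP1R15A: aatttattaacTATTTATtttttctaagtg
IFIT2: gcttgtttctaTATTTATataaagcagcca

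Counted from the first base after the stop codon, these heptamers start at base 187 of the 427-nt 3′ UTR of IL6, which holds 3 matches, and at base 1160 of 1222 in ATF3. They start at base 990 of 1993 in TNFAIP3, which holds a pair of matches, at base 31 of 84 in PPP1R15A and at base 323 of 1901 in IFIT2. NFKBIZ, which rose, had no match, and GTF2H5 and MRPS33, which fell, held 3 each. When genes were compared within classes of 3′ UTR length, those with the heptamer had the higher median change in each of the 4 classes. For 3′ UTRs under 500 nt the medians were -0.69 with and -0.93 without it, and for those of 2000 nt and over -0.59 and -0.65. The share that rose differed most in the class from 1000 to 2000 nt, at 7.67% of genes with the heptamer and 4.02% of those without it. It was 4.49% and 3.49% under 500 nt, 7.40% and 4.86% from 500 to 1000 nt, and 3.83% and 3.18% at 2000 nt and over. The genes with the heptamer also had the shorter half-lives, with medians of 3.57 and 4.24 h in the class from 1000 to 2000 nt. The part of half-life in these differences was not tested.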

How the data were processed

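RNA was measured by sequencing of rRNA-depleted total RNA in 12 samples, 3 in each of 4 groups. Per the submitters' processing notes the tools were Cuffdiff 2.2.1, TopHat2 2.0.6, Bowtie2 2.0.2, Trimmomatic 0.32 and FastQC on GRCh38.p12, with no settings recorded. Per the file headers, the authors gave 1 FPKM value for each group and gene, with the p-value and q-value of their own test within a genotype; no value of a single sample was used. GC content in percent, lengths, and half-lives from another study (Tani et al., up to 24 h) were deposited by the authors, per the file headers. Computed here were ERCC scale factors (the median, over rows averaging 1 FPKM or more, of the ratio to the geometric mean over the 4 groups), log2 changes with a pseudocount of 1, Spearman correlations and medians by quintile, in Python 3.11 with scipy 1.17.1 and pandas 2.3.3; the code was tested on simulated data. Comparisons between genotypes carry no test. Groups came from the sample titles, and the depth is unknown. Coding features came from GENCODE v29. Genes were named by rule: the 8 largest rises and 8 largest falls at q under 0.05 with at least 1 FPKM in both WT groups and 10 FPKM in the higher, the largest rise and fall in the outer quintiles of each feature, the 6 most abundant genes with a change within 0.25 of 0, and up to 3 genes of each list. The genes studied, the lists and the rules were chosen with earlier results of these data known. Alternatives were other pseudocounts, filters, scales, thresholds and gene sets; features of representative transcripts and sets without risen genes, without half-lives of 24 h or without mitochondrial genes were added after the data were seen. The check of the targeted gene is not reported here.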

Additional observations from a re-analysis of the deposited data

How the results depend on the processing

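Of 193 values of 13 results under alternatives, 169 stayed within a tolerance of 0.1 for a rank correlation, 0.25 for a log2 value and 1.5 times for a count; 15 moved farther and 9 changed sign, and the cause was not tested. The count of members that rose was 364 with 1 FPKM in both WT groups, 473 at 5 FPKM or more and 624 at q under 0.01. The count that fell was 247 at q under 0.01 and 1201 at q under 0.1. The median change of protein-coding genes was -0.27 with any value above 0 FPKM, -0.18 in FPKM as deposited and -0.0871 on a median-ratio scale. With any value above 0 FPKM, rank correlations were -0.0128 for 3′ UTR, -0.0192 for 5′ UTR and 0.0629 for total length, and differences between outer quintiles -0.21, -0.19 and -0.0568. With 5 FPKM or more, rho for total length was 0.36. Over all gene classes it was -0.22, with a difference of -1.10. At 10 FPKM or more in untreated RLKO, rho was 0.24 for 3′ UTR and 0.43 for total length, the difference for total length 1.07 and that for GC content -0.0217. With level held, rho was -0.0122 for GC content and -0.32 for half-life, and the difference for half-life -0.76. Half-life kept a negative rho under all 17 settings, from -0.52 to -0.32. No paired analysis was possible because the table holds 1 pooled value per group, and for the same reason no replicate could be left out. Read depth is not known, so low values carry no interval.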

Other observations

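Genes with a single exon were set apart from the rest of the protein-coding members. The 303 genes with 1 exon in their representative transcript had a median log2 change of -0.16 in WT, and 39 of them rose (12.9%) and 14 fell (4.62%). The 250 that are not histone genes had a median of -0.02, with 32 that rose and 6 that fell. The 11631 genes with 2 or more exons had a median of -0.72, with 477 that rose (4.10%). Median levels in untreated RLKO were 3.94 FPKM for the non-histone single-exon genes and 14.2 FPKM for genes with 2 or more exons, and the part of level in the difference was not tested. The RLKO medians were -0.14 and -0.25.

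Exon number as such had a rho of 0.08 with the change in WT, or 0.17 with level held, and 0.32 among genes that reached 10 FPKM in untreated RLKO. At that level the rho of coding length was 0.50 in WT and 0.33 in RLKO, and that of half-life -0.44 and -0.14.

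Protein-coding members that have no half-life in the table numbered 2578. Their median change was -0.30, and 241 of them rose (9.35%) and 46 fell (1.78%). They were low in untreated RLKO, with a median of 2.93 FPKM.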
